A study of Mus musculus with 8 samples.

Results

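The 10 genes Hspd1, Hspe1, Hspa9, Lonp1, Clpp, Clpx, Dnaja3, Trap1, Grpel1 and Afg3l2 encode chaperones and proteases of mitochondria. They were chosen by gene symbol, each matched 1 row of the 35275 genes in the deposited table, and all 10 were among the 15028 genes with enough counts to test. Renal cortex of 8 mice was sequenced at postnatal day 7, with 1 RNA library per mouse. The 4 controls (Con1391, Con1452, Con1822 and Con1823) are labelled Cre-, and the 4 mutants (Mut1393, Mut1453, Mut1454 and Mut1819) are labelled as Six2-Tfam knockout mice. The sources used here give no strain, no sex and no Tfam alleles of the controls. Six2 marks the progenitors of nephron epithelium, so Six2-driven recombination leaves vessels, stroma, immune cells and the collecting duct with Tfam, and renal cortex holds all of these. No library has Cre with intact Tfam, so effects of Cre and of Tfam loss cannot be told apart.

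Most mitochondrial proteins are made in the cytosol, imported unfolded through the membranes and folded in the matrix. There the Hsp70 protein HSPA9 takes hold of the incoming chain, with its J-domain partner DNAJA3 and its nucleotide exchange factor GRPEL1, and the HSPD1 chamber with its HSPE1 lid encloses proteins while they fold. Proteins that fail to fold, or that lack partners encoded by mitochondrial DNA, are degraded in the matrix by LONP1 and by the CLPX and CLPP complex, and in the inner membrane by AFG3L2. Transcription of such genes rises in the mitochondrial unfolded protein response, which was described in cultured mammalian cells and in worms. Tfam, the gene deleted here, encodes the protein that packages and transcribes mitochondrial DNA, and TFAM is itself a substrate of LONP1.

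The libraries held 15597762 to 20417550 counted reads each. Tfam was at 48.7 to 54.8 CPM (counts scaled to the size of the library) in controls and 26.5 to 27.6 in mutants. Genes encoded in mitochondrial DNA took 3.88 to 9.28% of the counts in controls and 1.148 to 1.84% in mutants. The control libraries hold the nephron cell types of a cortex, with the 5 proximal tubule markers Lrp2, Slc34a1, Slc5a2, Slc22a6 and Cubn summing to 3317 to 4450 CPM. The 3 adrenal markers summed to at most 3.63 CPM with Cyp11b1 at 0. In the same controls the 3 adipocyte markers summed to 130.5 to 241.1 CPM and the 3 red cell markers to 144 to 202.7 CPM. In mutants all 5 proximal tubule markers fell, to a sum of 392 to 781 CPM, and the 3 macrophage markers found (C1qa, C1qb and Csf1r) all rose, from a sum of 73.6 to 85.8 CPM to one of 114 to 126. Markers of the thick ascending limb (3 of 3), distal convoluted tubule (3 of 3), collecting duct (4 of 5), podocytes (3 of 3) and endothelium (3 of 3) also fell, as did 1 of 4 of stroma. Of the 3 nephron progenitor markers 2 had enough counts to test, and 1 rose and 1 fell. Of the 3 adrenal markers 1 was tested, and it fell. Of the 3 adipocyte markers 1 was tested, and it did not pass. All 3 red cell markers were tested, and 0 rose or fell. Of all 15028 genes tested, 23.5% rose and 22.7% fell. The part of these marker changes in the results on the 10 genes was not tested. In whole cortex, fewer cells of a type and less RNA per cell cannot be told apart. Counts of 4 Y-linked genes together were 0 to 3 in the controls, 4294 to 4915 in Mut1393, Mut1453 and Mut1454, and 27 in Mut1819, so sex and genotype cannot be told apart except through Mut1819.

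Hspd1 and Hspe1 stand head to head on chromosome 1 and are read outwards from one shared stretch, which is shown because both genes rose in these libraries and their ratio stayed within the spread of the mice. RefSeq's promoter table on GRCm38.p6 (mm10) held windows for 8 of the 10 genes, and Hspa9 and Afg3l2 are given by name. The line below is the whole 215 bases between the start of Hspd1, read to the left, and that of Hspe1, read to the right (chr1:55087933-55088147, plus strand). RefSeq also lists another Hspd1 start, at 55088243, beyond that of Hspe1. Capitals mark matches to the heat shock element pairs TTCNNGAA and GAANNTTC, which overlap here and together form 4 units in a row.
Hspd1-Hspe1: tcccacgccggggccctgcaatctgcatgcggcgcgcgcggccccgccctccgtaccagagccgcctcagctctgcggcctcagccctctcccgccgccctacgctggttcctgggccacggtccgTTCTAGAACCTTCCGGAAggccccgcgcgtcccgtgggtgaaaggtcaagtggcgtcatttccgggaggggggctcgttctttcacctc
The next 2 lines are the 250 bases before the start of Lonp1, which had the largest fold change of the 10 genes (chr17:56626904-56627153, minus strand), and of Grpel1, which did not pass the test (chr5:36464935-36465184, plus strand). Capitals in the Grpel1 line mark a CCAAT box, read on the opposite strand, and the Lonp1 line holds no match to any motif searched.
Lonp1: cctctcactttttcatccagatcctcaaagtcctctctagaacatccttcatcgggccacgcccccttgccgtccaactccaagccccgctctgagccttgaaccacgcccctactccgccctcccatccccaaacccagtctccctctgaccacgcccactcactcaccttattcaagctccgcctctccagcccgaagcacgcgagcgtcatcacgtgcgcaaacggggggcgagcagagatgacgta
Grpel1: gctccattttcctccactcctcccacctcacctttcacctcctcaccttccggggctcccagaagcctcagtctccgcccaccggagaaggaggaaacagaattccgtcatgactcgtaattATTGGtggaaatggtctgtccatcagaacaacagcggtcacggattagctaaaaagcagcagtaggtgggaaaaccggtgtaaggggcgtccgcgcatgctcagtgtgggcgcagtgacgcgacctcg

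Motifs were searched on both strands of windows from 250 bases before to 50 bases after each start. TTCNNGAA occurs in 8.52% and GAANNTTC in 7.86% of all 32851 windows of the table, which hold some genes more than once. The row of 4 units was searched after the pairs were seen to overlap. It occurs in 5 of the 32851 windows (0.0152%), those of Hspd1, Hspe1, Arpc2, Fam149a and Chordc1, and the Hspd1 and Hspe1 windows cover the same bases. Clpp has 1 TTCNNGAA pair, 33 bases after its start. The letters TGATGNAA, the core of the element bound by ATF4 with C/EBP partners, are in 3.97% of all windows and in 0 of the 9 windows of the 8 genes. The palindromic element of nuclear respiratory factor NRF1 is in 0.971% of all windows and also in 0 of those 9. CCAAT is in 37.4% of all windows, and among these genes in those of Grpel1, Clpx, Dnaja3 and the other Hspd1 start. A match is a run of letters and not a measured site.

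Of the 10 genes, 8 rose in mutants, 0 fell and 2 (Clpx and Grpel1) did not pass, in edgeR's quasi-likelihood test with Benjamini-Hochberg adjustment over all genes at 0.05. Of all 15028 genes tested 46.2% passed, with 23.5% higher and 22.7% lower. The median log2 fold change of the 10 genes was 0.39, against -0.0008 over all genes tested. In 7 of the 10 every mutant lay above every control, as in 22.1% of all genes tested (20.8% had every mutant below), and the groups of Clpp, Clpx and Grpel1 overlapped. The sizes were uneven, from Lonp1 at 3.71-fold and Hspa9 at 2.49-fold down to Clpp at 1.20-fold. Against a fold change of 1 log2 unit, Lonp1 and Hspa9 passed (adjusted p = 9.08e-07 and adjusted p = 0.0111, edgeR glmTreat), as did 4.94% of all genes tested, 1.74% upward and 3.21% downward. When presence of Y-linked counts was added to the model, 3 of the 10 remained past the threshold, Lonp1, Hspa9 and Dnaja3, while 26.4% of all genes tested passed, 12.6% upward and 13.8% downward. In that fit Mut1819 is the single mutant without Y-linked counts, so it sets the estimate, and the tests have less power. Mut1819 alone against the 4 controls, with the spread taken from the controls, rests on the same mouse and is no separate support. It also gave these 3 genes, and 23.3% of genes passed, 10.6% upward and 12.7% downward.

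**Figure D1:**
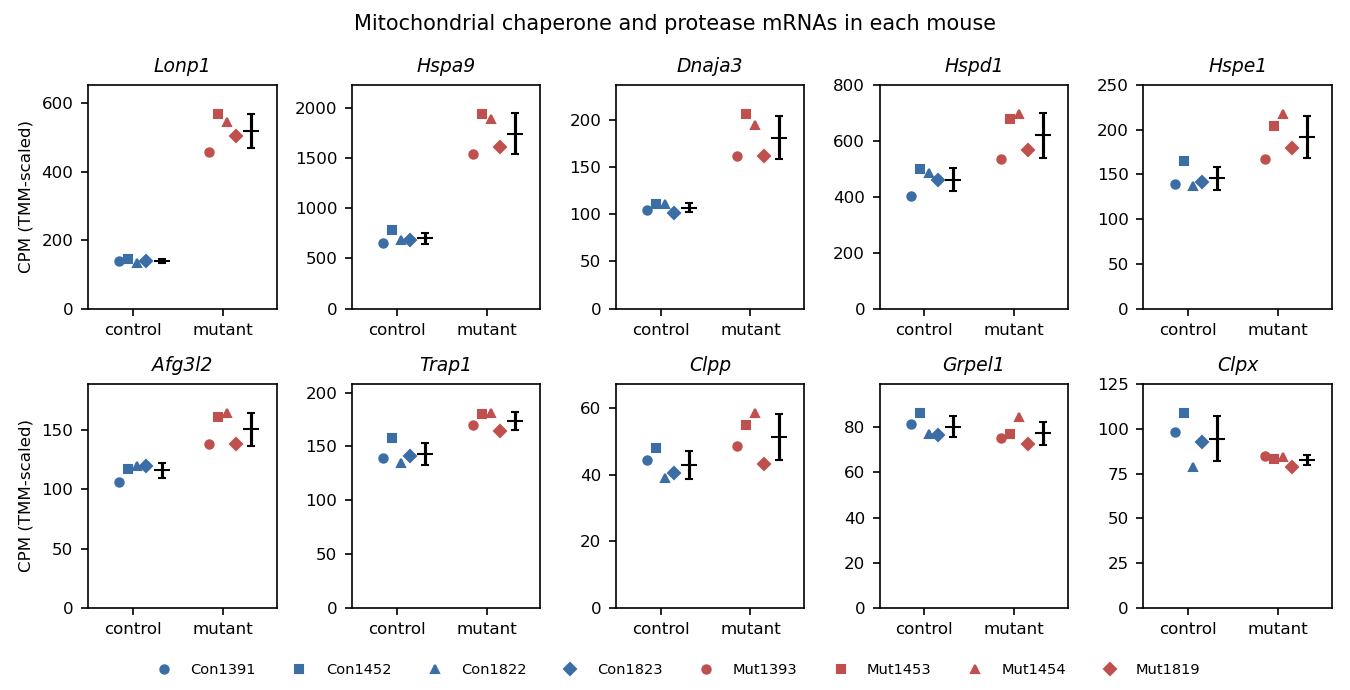
CPM of each of the 10 genes (linear axes from 0) in the 4 controls and 4 mutants, 1 symbol per mouse, with the mean and SD in black, ordered by fold change. Lonp1 lies at 134 to 146 CPM in controls and 458 to 570 in mutants, whereas the groups of Clpp, Grpel1 and Clpx overlap.

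Among the proteases of the matrix, Lonp1 had the largest rise. Lonp1 (ENSMUSG00000041168, mm10 chromosome 17, 56614297 to 56626887, minus strand) encodes a ring-shaped ATP-driven protease that degrades damaged and unassembled matrix proteins. It was at 138.7, 146.2, 134.2 and 140.6 CPM in Con1391, Con1452, Con1822 and Con1823, and at 458.1, 569.9, 545.5 and 504.7 CPM in Mut1393, Mut1453, Mut1454 and Mut1819. The controls had a coefficient of variation of 3.54%, Mut1393 was the lowest mutant, and the groups stood far apart. The log2 fold change was 1.89 (SE 0.08, adjusted p = 9.91e-09, edgeR), and 1.10% of all genes tested had a larger one. Mut1393 was also the mutant with the largest share of counts on mitochondrial genes, 1.84% against 1.148 to 1.26% in the other mutants, and whether the values are linked was not tested.

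The other matrix protease, formed by CLPP as the cutting chamber and CLPX as the unfolding ring, moved little. Clpp (chromosome 17, 56990305 to 56996188) was at 44.42, 48.01, 38.94 and 40.54 CPM in the controls and at 48.64, 54.97, 58.62 and 43.27 CPM in the mutants, in the same order of mice. Mut1819 lay below Con1391 and Con1452, so the groups overlapped. Its log2 fold change was 0.26 (SE 0.10, adjusted p = 0.0480, edgeR), a call that DESeq2 (adjusted p = 0.0525) and limma-voom (adjusted p = 0.0544) did not make and that ended without Con1391, Con1822, Con1823, Mut1453 or Mut1454 (adjusted p from 0.0705 to 0.144). With the Y-linked term it was 0.01 (adjusted p = 0.967).
Clpx (chromosome 9, 65294260 to 65330658) was at 97.92, 108.8, 78.45 and 92.38 CPM in the controls and at 84.90, 83.03, 84.20 and 78.59 CPM in the mutants. Con1822 was about as low as the lowest mutant and the other 3 controls were above all mutants. The log2 fold change was -0.19 (95% interval -0.38 to -0.01, unadjusted p = 0.0434, adjusted p = 0.0837, edgeR). It passed as a fall without Con1822 (-0.27, adjusted p = 0.00676) and with the mouse number range in the model (-0.24, adjusted p = 0.0128).

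At the inner membrane, Afg3l2 rose. It lies on chromosome 18 and encodes a subunit of the protease that faces the matrix and clears membrane proteins, alone or together with paraplegin, the product of Spg7. It was at 106.6, 117.4, 120.1 and 120.2 CPM in the controls and at 138.8, 161.4, 164.6 and 138.3 CPM in the mutants. All mutants were above all controls, with Mut1453 and Mut1454 the highest, and the log2 fold change was 0.38 (SE 0.07, adjusted p = 0.00108, edgeR). With the Y-linked term it was 0.25 (adjusted p = 0.113).

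In the matrix Hsp70 system, the chaperone rose most, its J-domain partner less, and its exchange factor did not pass. Hspa9 (chromosome 18), which encodes mitochondrial Hsp70, the chaperone that pulls in and folds imported chains, was at 652.4, 778.4, 679.4 and 686.8 CPM in the controls and at 1538, 1939, 1885 and 1604 CPM in the mutants. The lowest mutant, Mut1393, stood far above the highest control, Con1452. The log2 fold change was 1.32 (SE 0.09, adjusted p = 4.25e-07, edgeR), with 2.22% of all genes tested above it.
Dnaja3 (chromosome 16, 4639989 to 4707695) encodes the J-domain protein that hands substrates to Hsp70 and triggers its ATP use. It was at 104.2, 110.7, 110.3 and 101.0 CPM in the controls and at 161.5, 206.2, 193.8 and 161.6 CPM in the mutants. The groups did not overlap, and Mut1393 and Mut1819 were the lower pair of mutants. The log2 fold change was 0.76 (SE 0.08, adjusted p = 1.34e-05, edgeR). The exons of Dnaja3 share 160 bases (4.09% of their length) with Vasn on the same strand. They share 153 bases (3.91%) with Coro7 on the opposite strand. The part of these bases in the counts of Dnaja3 was not tested.
Grpel1 (chromosome 5, 36464998 to 36474080) encodes the exchange factor that releases ADP from Hsp70. It was at 81.33, 86.35, 77.12 and 76.61 CPM in the controls and at 75.40, 77.07, 84.64 and 72.72 CPM in the mutants. The groups lay over one another, with a log2 fold change of -0.05 (95% interval -0.19 to 0.08, adjusted p = 0.526, edgeR). Its exons share 411 bases, 11.65% of their length, with Tada2b on the opposite strand, and the sources used here do not give strandedness.

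In the folding chamber, both mRNAs rose by nearly the same factor. Hspd1 (chromosome 1, 55077835 to 55088243, minus strand), which encodes the barrel, was at 402.7, 497.6, 483.4 and 459.2 CPM in the controls and at 535.1, 677.4, 696.6 and 568.1 CPM in the mutants. Con1391 and Mut1393 were the lowest of their groups, and the groups did not overlap. The log2 fold change was 0.43 (SE 0.10, adjusted p = 0.00349, edgeR).
Hspe1 (chromosome 1, 55088132 to 55091307, plus strand), which encodes the lid, was at 139.3, 164.6, 136.9 and 141.1 CPM in the controls and at 166.7, 203.7, 217.6 and 179.1 CPM in the mutants. Con1452 stood above the other 3 controls and just below Mut1393. The log2 fold change was 0.40 (SE 0.09, adjusted p = 0.00308, edgeR). With the Y-linked term the values were 0.30 for Hspd1 (adjusted p = 0.163) and 0.30 for Hspe1 (adjusted p = 0.142). The 2 genes share 112 exonic bases on opposite strands, and the pseudogene Hspd1-ps3 matches 71.1% of the Hspd1 transcript at 95% identity or more but had at most 12 counts in a mouse. A further coding gene of GENCODE M21, AC117239.2, matches 66.5% of the Hspe1 transcript, so the counts of both genes are uncertain to the extent that reads match more than 1 place.

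Trap1 (chromosome 16, 4039971 to 4077827) encodes the Hsp90 protein of mitochondria, a chaperone of respiratory enzymes. It was at 139.1, 157.8, 134.3 and 140.8 CPM in the controls and at 170.2, 179.7, 181.0 and 163.9 CPM in the mutants. The groups did not overlap, with Con1452 close under Mut1819, and the log2 fold change was 0.28 (SE 0.06, adjusted p = 0.00306, edgeR). With the Y-linked term it was 0.20 (adjusted p = 0.171).

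**Figure D2:**
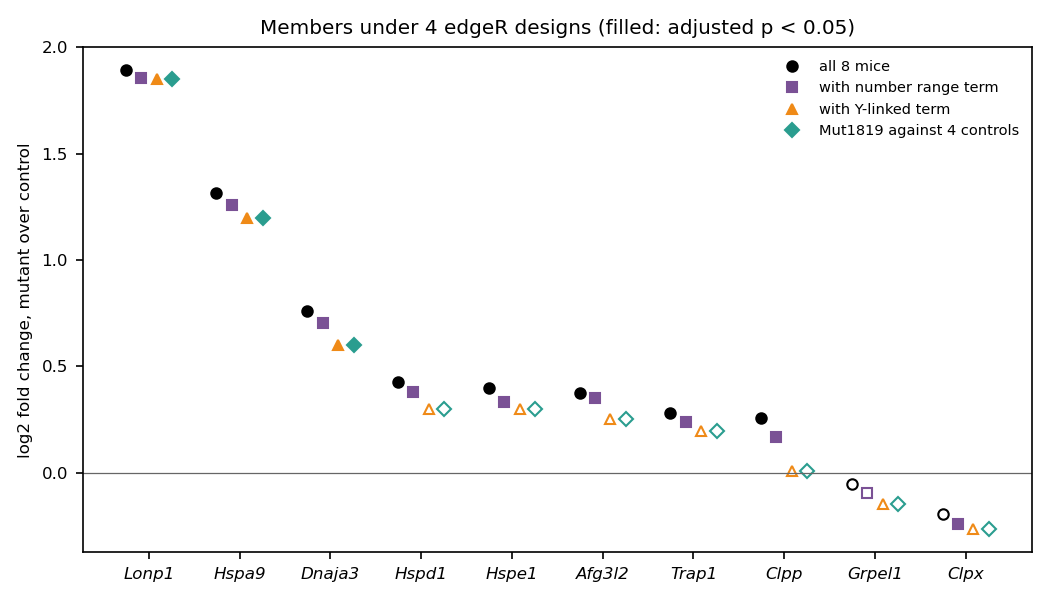
Log2 fold change of each of the 10 genes, mutant over control, in 4 edgeR fits, with filled symbols for an adjusted p under 0.05. Lonp1, Hspa9 and Dnaja3 stay filled in all 4 fits, at 1.85 to 1.89, 1.20 to 1.32 and 0.60 to 0.76, and Clpp goes from 0.26 to 0.01.

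The mouse numbers fall into ranges, the 1300s, 1400s and 1800s, whose meaning the labels do not give and which hold 1 or 2 mice of each group. Within these ranges, in that order, the log2 ratio of mutants to controls was 1.72, 1.93 and 1.88 for Lonp1, and 1.24, 1.30 and 1.23 for Hspa9. It was 0.63, 0.85 and 0.61 for Dnaja3. The other genes that rose were above 0 in all 3 ranges, the lowest value being 0.12 for Clpp in the 1800s, and Clpx and Grpel1 were below 0 in all 3. With the number range as a term, 8 of the 10 rose and 1, Clpx, fell, and 48.2% of all genes tested passed, 24.3% upward and 23.9% downward. Within groups the coefficient of variation of the 10 genes ran from 3.54 to 13.4% in controls and from 3.43 to 13.2% in mutants.

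Partner proteins act together, so the ratio of their counts was taken in each mouse, which does not depend on how libraries are scaled. For 11 ratios an exact permutation test (two-sided, 70 assignments of the mice) compared the groups, where the smallest p that 4 against 4 mice can give is 0.0286, adjusted over the 11. Of these, 9 did not overlap between groups and reached that smallest p, with adjusted p = 0.0349 in the exact test for each. The share over all pairs of genes was not computed. Of single genes tested, 22.1% had every mutant above every control and 20.8% every mutant below. A ratio can separate because 1 of its 2 genes changed, so the ratios are not independent of the fold changes.
The log2 ratio of Hspe1 to Hspd1 was -1.66 ± 0.13 (SD, n = 4) in controls and -1.69 ± 0.03 (SD, n = 4) in mutants, a difference of -0.03 (exact permutation p = 0.743, adjusted p = 0.817). The lid and the barrel thus changed by amounts that could not be told apart here, with all 4 mutants inside the range of the controls.
Within the Hsp70 system the ratios did differ. The ratio of Grpel1 to Hspa9 was 0.125, 0.111, 0.113 and 0.112 in the control mice, against 0.0490, 0.0398, 0.0449 and 0.0453 in the mutant mice, a log2 difference of -1.37. The ratio of Dnaja3 to Hspa9 was 0.160, 0.142, 0.162 and 0.147 in the control mice, against 0.105, 0.106, 0.103 and 0.101 in the mutant mice, a log2 difference of -0.56. In every mutant, each co-chaperone gene therefore had fewer counts per Hspa9 count than in any control.
The ratio of Clpx to Clpp was 2.21, 2.27, 2.02 and 2.28 in the control mice, against 1.75, 1.51, 1.44 and 1.82 in the mutant mice, a log2 difference of -0.43 that was -0.27 with Mut1819 alone. The ratio of Spg7 to Afg3l2 was 0.8503, 0.812, 0.664 and 0.652 in the control mice, against 0.524, 0.481, 0.501 and 0.475 in the mutant mice, a log2 difference of -0.58. For both ratios all mutants lay below all controls. These ratios compare change between genes, not the number of molecules, since longer mRNAs give more reads.

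**Figure D3:**
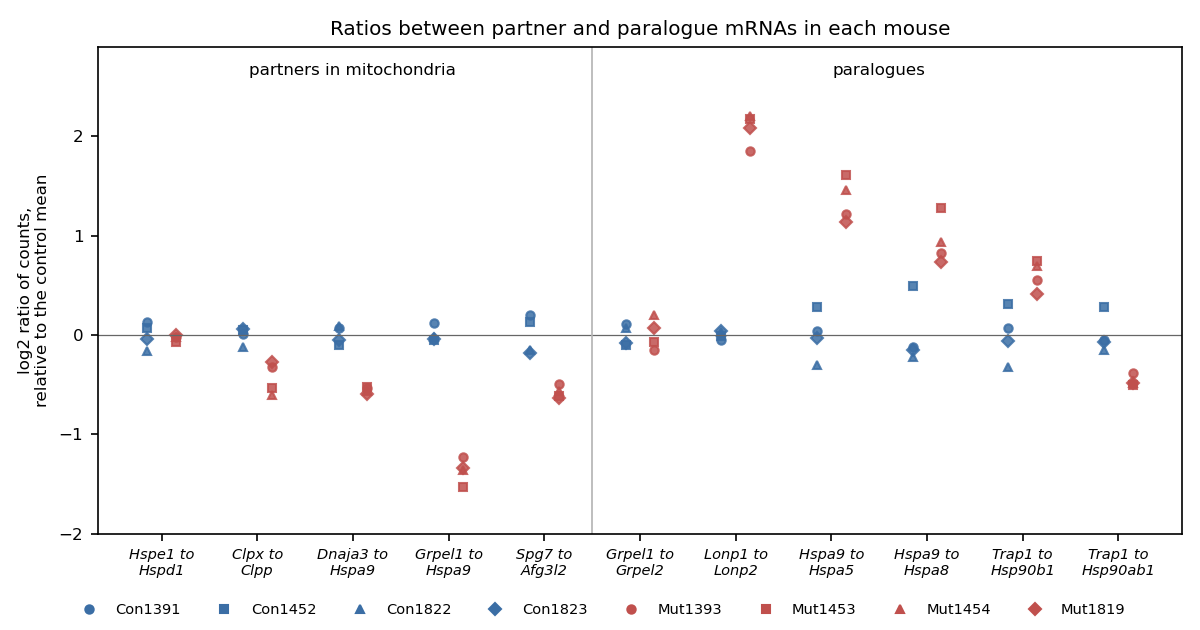
Log2 ratio of the counts of 2 genes in each mouse, with the mean of the controls set to 0, for 5 pairs of partners and 6 pairs of paralogues. The mutants lie within the controls for Hspe1 to Hspd1, and stand far above them for Lonp1 to Lonp2, where the mean log2 ratio goes from 0.30 to 2.38.

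Each of several of these genes has a relative in another compartment. Lonp2, the LON protease of peroxisomes, went from 113 ± 5.44 to 99.3 ± 3.704 CPM (SD, n = 4 mice each), and fell, with a log2 fold change of -0.19 (adjusted p = 0.0126, edgeR, and adjusted p = 0.0858 with the Y-linked term). The ratio of Lonp1 to Lonp2 was 1.19, 1.23, 1.26 and 1.27 in the control mice, against 4.45, 5.58, 5.70 and 5.23 in the mutant mice, a log2 difference of 2.08.
Hspa5, the Hsp70 of the endoplasmic reticulum, was at 903 ± 122 CPM in controls and 872 ± 50.7 in mutants, with a log2 fold change of -0.05 (adjusted p = 0.683, edgeR). Hspa8, the constant Hsp70 of the cytosol, rose by 0.36 (adjusted p = 0.0185, edgeR), though with the Y-linked term its adjusted p was 0.0789. Hspa9 rose relative to both, with log2 differences of 1.36 against Hspa5 and 0.94 against Hspa8.
Trap1 gained on Hsp90b1, the Hsp90 of the endoplasmic reticulum, which fell by 0.33 (adjusted p = 0.00938, edgeR, and adjusted p = 0.275 with the Y-linked term), and the log2 ratio rose by 0.60. Against Hsp90ab1, an Hsp90 of the cytosol, which rose by 0.75 (adjusted p = 7.29e-06, edgeR), the log2 ratio of Trap1 changed by -0.47. Trap1 thus rose less than the cytosolic gene in these libraries.
Grpel2, the other mitochondrial exchange factor, did not pass, at -0.07 on the log2 scale (adjusted p = 0.540, edgeR), and its ratio to Grpel1 overlapped between groups (difference 0.01 on the log2 scale, exact permutation p = 0.886).

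Other mitochondrial proteases and chaperones included genes that rose and genes that fell, and the 5 of 16 and 7 of 15 that passed are near or below the 46.2% of all genes tested. Of 16 other proteases and peptidases, 3 rose and 2 fell, while 11 missed the threshold. Their median log2 fold change was 0.05. Of these 1 rose and 1 fell with the Y-linked term. The number that fell was 0 without Con1452, 1 without Con1391, Mut1453 or Mut1819, and 3 without Con1822 or Mut1454. Pitrm1, which degrades cut-off targeting sequences, went from 79.5 ± 6.56 to 108 ± 2.57 CPM (SD, n = 4 mice each; log2 fold change 0.44, adjusted p = 0.000126, edgeR). Afg3l1, a subunit related to Afg3l2, rose by 0.27, though it was 0.15 with the Y-linked term (adjusted p = 0.348). Pmpcb, the cutting subunit of the peptidase that removes targeting sequences, fell by 0.24, and Immp1l, a peptidase of the inner membrane, fell by 0.23 on the log2 scale, and neither passed with the Y-linked term (adjusted p = 0.0625 and adjusted p = 0.359). Spg7, the partner of Afg3l2, did not pass, at -0.20 on the log2 scale (adjusted p = 0.0634, edgeR). It passed as a fall with the Y-linked term (-0.39, adjusted p = 0.0384), with the number range term (-0.27, adjusted p = 0.000909) and with a filter of 10 CPM (adjusted p = 0.0495).
Of 15 other chaperones, co-chaperones and scaffolds, 5 rose and 2 fell, while 8 missed the threshold. Their median was 0.01. Of these 3 rose and 2 fell with the Y-linked term, at a median of -0.10, and with the number range term 5 rose and 4 fell. Without Con1452, Mut1453 or Mut1819, 1 fell, and without Mut1454 the number was 3. Clpb, a disaggregase of the space between the membranes, went from 44.2 ± 1.58 to 77.8 ± 5.77 CPM (SD, n = 4 mice each; log2 fold change 0.82, adjusted p = 1.07e-06, edgeR). Dnajc11, a J-domain protein linked to cristae, rose by 0.62, and Ppif, which encodes cyclophilin D, by 0.52. Dnajc19, a J-domain protein of the import motor, fell by 0.64 on the log2 scale (adjusted p = 0.000138, edgeR).

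Most cytosolic chaperones rose, and among those of the endoplasmic reticulum more fell than rose. Of 24 cytosolic chaperones 17 rose and 1 fell, the median log2 fold change being 0.37, and with the Y-linked term 13 rose and 0 fell. Of all genes tested, 23.5% rose and 22.7% fell, or 12.6% and 13.8% with the Y-linked term. The 8 genes of the CCT folding chamber, grouped after their values were seen, all rose, by 0.16 to 0.61, among them Cct4 (0.58), Cct5 (0.54) and Cct2 (0.61). Hspa1a, a stress-inducible Hsp70, also chosen after its values were seen, was the 1 gene that fell, by 0.47 on the log2 scale (adjusted p = 0.0202, edgeR). It was at 10.3 to 15.3 CPM in controls and 8.38 to 10.3 in mutants. Hspa1a did not pass with the Y-linked term (adjusted p = 0.348). Hspa1b, with a mean of 34.6 CPM in controls, did not pass (-0.14 on the log2 scale, adjusted p = 0.426, edgeR). Hspb8, Hspb1 and Hsph1 rose (adjusted p = 3.24e-05, adjusted p = 0.00034 and adjusted p = 0.000105, edgeR), and also passed with the Y-linked term. Hspa1b and these genes were likewise chosen after their values were seen. No cytosolic gene of the list fell without Con1391, Con1822, Mut1453 or Mut1454. Of 14 chaperones of the endoplasmic reticulum 2 rose and 7 fell, or 1 and 1 with the Y-linked term, with a median of -0.14. Dnajb9 rose by 0.62, while Pdia3 fell by 0.31, Calr by 0.33 and Dnajc3 by 0.25 on the log2 scale, and of these Dnajb9 and Dnajc3 passed with the Y-linked term. Whether the lists differ from one another was not tested.

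Of 7 transcription factors and regulators linked to the mitochondrial unfolded protein response, 6 rose and Ubl5 fell. Of all genes tested 23.5% rose and 22.7% fell. With the Y-linked term 6 of the 7 rose and 0 fell, against 12.6% and 13.8% of all genes tested. Atf5, which carries this response in mammalian cells, went from 20.5 ± 1.28 to 244 ± 18.9 CPM (SD, n = 4 mice each), and the log2 fold change of Ddit3, which encodes CHOP, was 3.53. Those of Atf4 and Cebpb were 1.45 and 1.67, which lie between the values of Hspa9 and Lonp1. Ubl5, a regulator known from worms and chosen here after its values were seen, fell by 0.23 on the log2 scale (adjusted p = 0.0179, edgeR, and adjusted p = 0.139 with the Y-linked term), a call also lost without Con1391 or Con1452.

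**Figure D4:**
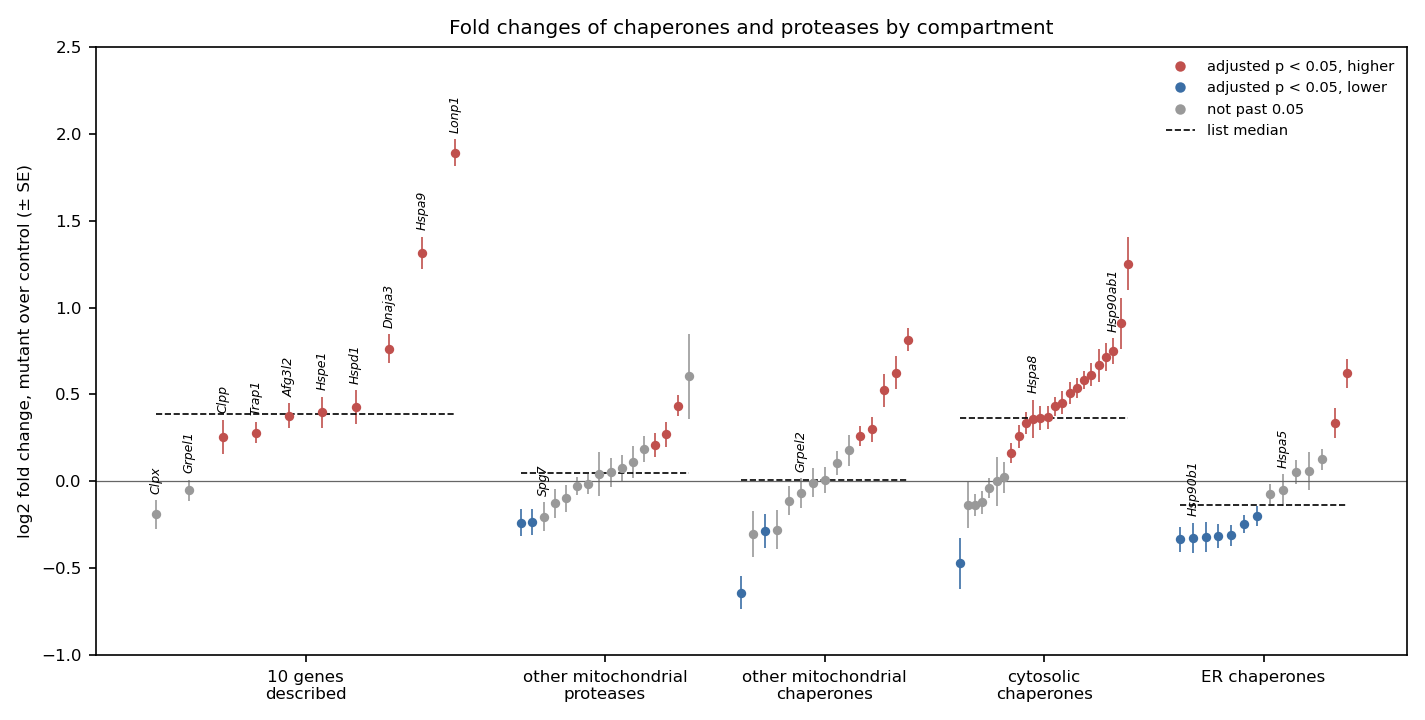
Log2 fold change, mutant over control, with an SE derived from edgeR's F statistic, for the 10 genes and for 4 other lists. These lists hold other mitochondrial, cytosolic and endoplasmic reticulum (ER) genes. Points are coloured by the test, and dashed lines give the median of each list. The medians are 0.39 for the 10 genes, 0.05, 0.01 and 0.37 for the next lists and -0.14 for the ER list.

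Levels can be set between genes only per length. By the authors' FPKM in controls the order was Hspa9 (518 ± 25.3, SD, n = 4 for each gene), Hspd1 (353 ± 30.2), Hspe1 (163 ± 8.66), Trap1 (145.5 ± 5.17), Dnaja3 (58.2 ± 3.06), Clpx (48.5 ± 4.99), Lonp1 (45.9 ± 0.244), Afg3l2 (36.6 ± 2.40), Clpp (34.6 ± 2.28) and Grpel1 (22.2 ± 0.733). Clpx and Lonp1 overlapped in range, as did Afg3l2 and Clpp, and the other neighbours did not. In mutants Lonp1 reached 180 ± 15.5 FPKM, a range of 159 to 196 that overlapped with that of Trap1 (180 to 192), and so moved from the seventh to the fifth place by FPKM.
The lengths behind these FPKM values are clearly shorter than the longest coding transcript for Hspa9, Trap1, Hspd1, Clpx and Dnaja3, by 2.32, 2.43, 1.91, 1.53 and 1.49 times. The order depends on this. With that transcript as the length, places in controls changed from 6 to 9 for Clpx and 5 to 7 for Dnaja3. They changed from 9 to 6 for Clpp and 7 to 5 for Lonp1. Per kilobase of that transcript, Hspd1 and Hspe1 stood at nearly the same level in controls, 190 ± 17.3 and 188 ± 16.6 CPM per kilobase (SD, n = 4), and Hspa9 at 229 ± 17.97, and Lonp1 went from 47.4 ± 1.68 in controls to 176 ± 16.6 in mutants, from the fifth to the fourth place. Hspa9 was the highest and Grpel1 the lowest of the 10 in controls under both lengths, 23.4 times apart by FPKM and 10.1 times by the transcript.

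**Figure D5:**
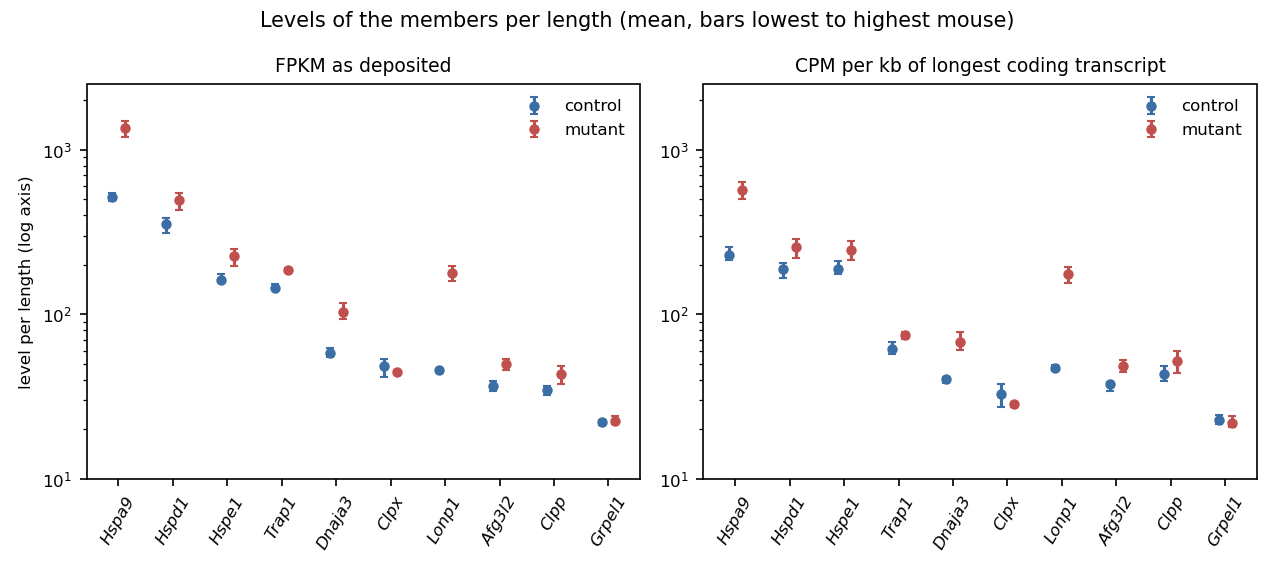
Level of each of the 10 genes per length (log axis), as the mean of 4 controls or 4 mutants with bars from the lowest to the highest mouse, by the authors' FPKM (left) and by CPM per kilobase of the longest coding transcript (right). Lonp1 goes from 45.9 to 180 FPKM, and Trap1 lies close to Hspe1 in the left panel and well below it in the right one.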

How the data were processed

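The libraries are RNA sequencing of renal cortex at postnatal day 7 from 4 control and 4 mutant mice, grouped by their titles. The authors deposited 1 table with a read count and an FPKM value (fragments scaled to gene length and library size) per gene and mouse, per the file headers. The submitters' processing notes name Bowtie2, TopHat2, HTSeq, DESeq2 and the build mm10; the sources used here do not give versions, strandedness or the gene length behind FPKM. Dividing counts by FPKM gave that length, which was the same in every mouse for the genes described.

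The test on counts was that of edgeR 4.0.16 with R 4.3.3 (filterByExpr, TMM scaling, quasi-likelihood test, Benjamini-Hochberg adjustment over 15028 genes, threshold 0.05). CPM values are TMM-scaled. Each SE is the absolute log2 fold change divided by the square root of edgeR's F statistic. Intervals are 95% intervals from that SE and a t quantile (SciPy 1.17.1). Depth was 15597762 to 20417550 counts per mouse. Labels do not say whether mice came from separate litters. Alternatives were DESeq2 1.42.0, limma-voom (limma 3.58.1), median-ratio size factors, mitochondrial genes left out, 2 other filters, leaving out each mouse, a threshold of 1 log2 unit, terms for mouse number range and for Y-linked counts (over 1000 in a library), and Mut1819 alone. Ratios of counts were tested with exact permutation tests that went through all 70 assignments of the mice (Python 3.11.15, NumPy 2.4.6). Positions are from GENCODE M21, and copies were searched with BLAST at 95% identity over at least 50 bases. The scripts were tested on simulated data.

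The 10 genes, the lists and the tests were chosen with earlier results of these data known. Beside the 10 genes and Tfam, the text names from each list the 4 genes with the smallest adjusted p and those used in ratios, and says where a gene was added after its values were seen. Of 130 genes listed, 129 were matched. The longest coding transcript as length and the row of heat shock units were added after seeing the data.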

Additional observations from a re-analysis of the deposited data

Results flagged for a closer look

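In each group of 4 mice, the gap of the highest or lowest mouse to its neighbour was set against the whole range, with Dixon's 95% critical value, for the CPM of the 10 genes and for the 11 ratios. Of 42 groups, 3 stood out, and chance alone marks about 1 in 20. Hspe1 was at 164.6 CPM in Con1452, against 136.9 to 141.1 in the other controls. The log2 ratio of Hspa9 to Hspa8 was -0.50 in the same mouse, against -1.21 to -1.12 in the other controls. The log2 ratio of Trap1 to Hsp90ab1 was -4.08 in Mut1393, against -4.20 to -4.18 in the other mutants. Con1452 also had the largest share of counts on mitochondrial genes, 9.28% against 3.88 to 5.88% in the other controls, and its part in these values was not tested.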

How the results depend on the processing

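Over 180 alternatives for the 10 fold changes, 152 kept their direction and side of the threshold, 26 lost the call, 2 gained it and 0 changed sign. Clpp lost its call with DESeq2 (0.26), limma-voom (0.25), median-ratio factors (0.25), mitochondrial genes left out (0.25) and a filter of 10 CPM (0.25). Against 1 log2 unit, 2 of the 10 genes rose, and 743 of all genes and 4 related genes changed. These 4 were all in the list of transcription factors and regulators. Hspd1 (0.43), Hspe1 (0.40), Clpp (0.26), Dnaja3 (0.76), Trap1 (0.28) and Afg3l2 (0.38) did not pass. With the number range term 1 gene fell, Clpx (-0.24). With the Y-linked term 3 rose, 3967 genes and 28 related genes changed, and the values were 0.30 for Hspd1, 0.30 for Hspe1, 0.0096 for Clpp, 0.20 for Trap1 and 0.25 for Afg3l2. With Mut1819 alone, where the lone mutant is taken to vary like the controls, 3 rose, 3684 genes and 27 related genes changed, and the values were 0.30, 0.30, 0.0085, 0.20 and 0.25 for the same genes. The cause of these changes was not tested.

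With each mouse left out, 7 to 8 of the 10 rose, 0 to 1 fell, 6085 to 7032 genes and 41 to 46 related genes changed, Clpp ran from 0.19 to 0.33 and Clpx from -0.27 to -0.11. Log2 differences of ratios that moved by more than the spread were, for Hspe1 to Hspd1, -0.15 in the 1300s and 0.10 in the 1800s; for Clpx to Clpp, -0.27 with Mut1819 alone, -0.62 in the 1400s and -0.24 in the 1800s. In the 1400s they were -0.44 for Dnaja3 to Hspa9, -0.73 for Spg7 to Afg3l2, 0.62 for Hspa9 to Hspa8 and -0.77 for Trap1 to Hsp90ab1. Grpel1 to Grpel2 was -0.26 in the 1300s and 0.17 in the 1400s, and Lonp1 to Lonp2 was 1.91 and 2.20. The span of levels was 10.1 with the longest coding transcript. No paired analysis was possible because the groups share no replicate number.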
